A study of Mus musculus with 39 samples.

Results

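The expression of 10 kidney genes, the members described here, was followed through the deposited counts of perforin-deficient mice: the tubule injury genes *Havcr1* and *Spp1*, the tubule-derived factors *Egf*, *Umod* and *Kl*, the salt and phosphate transporters *Slc12a1*, *Slc12a3* and *Slc34a1*, and the water channels *Aqp1* and *Aqp2*. They were chosen by name from the known biology of the nephron and not by a rule on measured values, but with earlier results of these data known. All 10 were among the 24537 genes of the table for kidney, liver and lung and among the 52508 genes of the table for skin. All mice were *Prf1*-/- on the C57BL/6 strain, so every group, the young reference included, lacked perforin, the pore-forming protein of cytotoxic lymphocytes, and wild-type mice were not analysed here. Young mice were sacrificed at 3 months with no treatment. Old mice were sacrificed at 20 months, after either a vehicle solution or 25 mg/kg ABT-737, an inhibitor of the anti-apoptotic BCL-2 proteins, given from 18 months of age on 2 consecutive days per month for 2 months. The treatment field of ABT-737 replicates 4 and 5 reads ABT-738 and ABT-739, while their titles place them with ABT-737, and they were kept in that group. There were 4 young, 3 vehicle and 3 ABT-737 libraries of kidney, and the same numbers of liver and lung; skin had 3 of each. Age and treatment with vehicle came together in the old mice, so a difference between vehicle and young cannot be told apart from the effect of the injections.

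The nephron is a chain of segments, each with its own transporters. The proximal tubule reclaims most of the filtered sodium, phosphate, glucose, amino acids and water, the thick ascending limb and the distal convoluted tubule take up further salt through a pair of related cotransporters, and the collecting duct sets the final water content of urine under vasopressin. When tubule cells are damaged they lose part of this equipment and switch on a small set of injury genes, of which *Havcr1* (KIM-1) and *Spp1* (osteopontin) are widely used as markers, while *Egf* and *Kl* are known for their high expression in healthy tubules.

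Expression was measured on whole tissue by a bulk form of MARS-seq, which counts the 3′ ends of transcripts, and values are given as CPM, the counts of a library divided by its total and scaled by the TMM method so that libraries of unequal depth can be compared. Kidney libraries held 1431814 to 3513311 counts, the smallest being vehicle replicate 4. The 24 proximal tubule markers had counts in every kidney library, and none of the 8 adrenal cortex genes passed the filter on low counts. In whole tissue, fewer cells of a type and less RNA per cell cannot be told apart. The labels give no collection day or batch, so p-values measure the spread between these libraries, which may in part be technical.

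In kidney all 10 members passed the filter and were tested together with the other genes, 11123 in all. In old vehicle-treated mice relative to young mice, *Havcr1* and *Slc12a3* rose and *Egf* and *Kl* fell, whereas the other 6 members did not pass the test. The 4 calls among 10 members stood beside a background of 13.3% of all genes tested (7.75% higher and 5.5% lower). After ABT-737, no member differed from vehicle or from young beyond the threshold (background 1.35% and 2.12%). Tests were run in edgeR with the quasi-likelihood method, p-values were adjusted by Benjamini-Hochberg over all genes tested in the tissue with 0.05 as the threshold, and each log2 fold change is given with its standard error (SE).

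**Figure D1:**
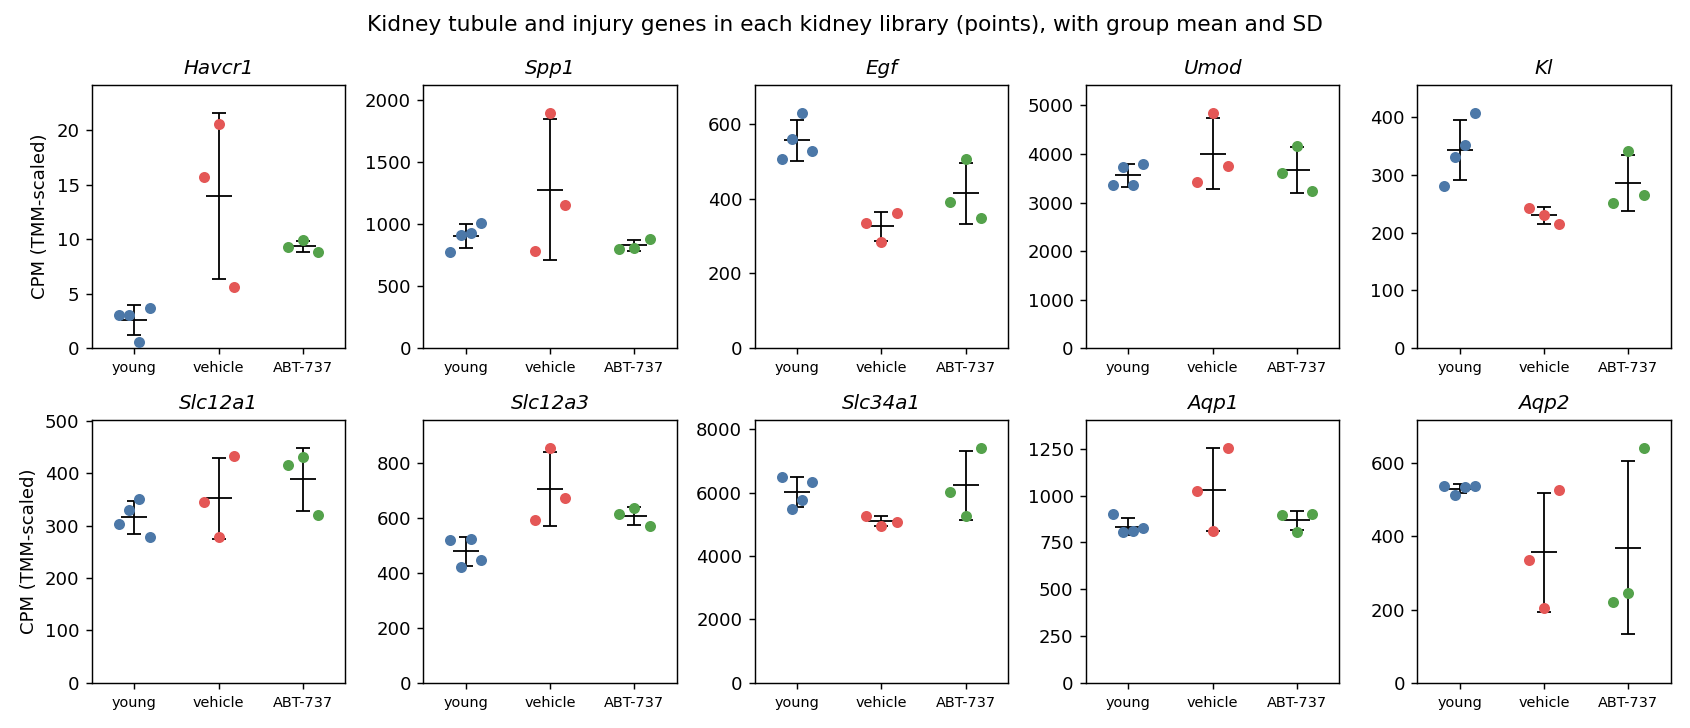
TMM-scaled CPM of the 10 members in each kidney library, with young in blue (4 libraries), vehicle in red (3) and ABT-737 in green (3); horizontal marks and bars give the group mean and SD, and every axis starts at 0. The 3 vehicle libraries of Havcr1 and of Slc12a3 sit above all 4 young libraries, those of Egf and Kl sit below them, and the Aqp2 values of both old groups spread far more than those of young mice.

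*Havcr1* (chr11:46751168-46779578, plus strand, build mm10) encodes a phosphatidylserine receptor that injured proximal tubule cells place on their surface. It was close to the detection limit in young kidneys, with 7, 11, 2 and 8 counts in replicates 1 to 4, which correspond to 3.00, 3.03, 0.585 and 3.69 CPM. The vehicle libraries held 40, 30 and 12 counts (15.7, 20.5 and 5.63 CPM in replicates 3, 4 and 5), and the ABT-737 libraries 18, 20 and 17 counts (9.25, 9.90 and 8.83 CPM). Every old library therefore lay above every young one, and the 3 ABT-737 values fell inside the range of vehicle. Low in every young library, *Havcr1* passed the filter through the old groups. It was also called in vehicle over young without the filter. The change in vehicle over young was 2.44 on the log2 scale (SE 0.453, 95% interval 1.48 to 3.41, adjusted p = 0.00188 by edgeR), or 5.44-fold. In ABT-737 over young it was 1.90 (SE 0.481, adjusted p = 0.0510 by edgeR), just outside the threshold. It passed by DESeq2 (adjusted p = 0.0166), and in edgeR without vehicle replicate 4 (adjusted p = 0.0388) or vehicle replicate 5 (adjusted p = 0.0263), which lend this comparison their spread alone. In edgeR it did not pass without any single young or ABT-737 library or without vehicle replicate 3. Nor did it pass there with DESeq2 size factors or with the replicate-number block. ABT-737 differed from vehicle by -0.54 (95% interval -1.44 to 0.36, adjusted p = 0.592 by edgeR), an interval wide enough to hold no difference as well as a fall by more than 1 log2 unit.

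*Spp1* (chr5:104435111-104441053, plus strand) encodes osteopontin, a secreted phosphoprotein that binds integrins and CD44 and is made by distal tubule cells and, in many tissues, by macrophages. Young kidneys held 774, 907, 924 and 1011 CPM. The vehicle libraries held 783, 1892 and 1154 CPM, so replicate 4 was well above the rest while replicate 3 lay within the young range, and the ABT-737 libraries held 799, 809 and 879 CPM. The difference between vehicle and young was 0.50 (SE 0.216, adjusted p = 0.142 by edgeR) and that between ABT-737 and vehicle was -0.62 (SE 0.233, adjusted p = 0.216 by edgeR). Without vehicle replicate 3, both passed, at 0.74 (adjusted p = 0.0111) and -0.87 (adjusted p = 0.0194) by edgeR, while without vehicle replicate 4 they shrank to 0.10 and -0.22. *Spp1* in kidney therefore depended on which vehicle library was counted. A gene model of uncertain status, Gm42793, lies on the same strand over a *Spp1* exon, and its reads cannot be told apart from those of *Spp1*.

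*Egf* (chr3:129677577-129755322, minus strand), whose membrane-bound precursor is made in the thick ascending limb and distal convoluted tubule and which supports epithelial repair through the EGF receptor, held 505, 560, 629 and 529 CPM in young kidneys. The vehicle libraries held 335, 285 and 361 CPM, all below the lowest young library. The ABT-737 libraries held 390, 506 and 348 CPM, so replicate 4 reached the lower edge of the young range and replicate 5 lay within the vehicle range. Vehicle was 1.70-fold lower than young, with a log2 change of -0.77 (SE 0.155, adjusted p = 0.00379 by edgeR), and this call was kept with any of the 10 kidney libraries left out. ABT-737 differed from vehicle by 0.34 (95% interval -0.0049 to 0.69, adjusted p = 0.347 by edgeR) and from young by -0.42 (SE 0.154, adjusted p = 0.171 by edgeR).

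The other members of the thick ascending limb did not pass in any kidney comparison. *Umod* (chr7:119462708-119479262, minus strand), the gene of uromodulin, the most abundant protein of normal urine, held 3368, 3733, 3351 and 3795 CPM in young, 3433, 4842 and 3754 CPM in vehicle and 3603, 4165 and 3232 CPM in ABT-737 kidneys. *Slc12a1* (chr2:125152600-125230001, plus strand), the furosemide-sensitive cotransporter NKCC2 of the same cells, held 304, 330, 350 and 278 CPM in young, 346, 278 and 432 CPM in vehicle and 415, 430 and 319 CPM in ABT-737 kidneys. In both genes the groups overlapped. The difference between vehicle and young was 0.17 for *Umod* (95% interval -0.16 to 0.51) and 0.16 for *Slc12a1* (95% interval -0.19 to 0.50), and neither interval reaches a fall of the size measured for *Egf*. The count of *Egf* per count of *Umod* in the same library, a ratio chosen after the values were seen and so given with no test, averaged 0.157 in the 4 young kidneys (SD 0.0212), 0.0841 in the 3 vehicle kidneys (SD 0.0219) and 0.112 in the 3 ABT-737 kidneys (SD 0.00775), and the ranges of the 3 groups did not overlap. The ratio of *Slc12a1* to *Umod* averaged 0.0891 (SD 0.0127), 0.0911 (SD 0.0300) and 0.106 (SD 0.00850) in the same order, with overlapping ranges. Among single genes, 27.8% did not overlap between vehicle and young, 16.2% between ABT-737 and young and 15.2% between ABT-737 and vehicle. No such share was computed for ratios. Antisense transcripts overlap exons of *Egf* and *Umod*, and the strand setting of the counting was not given in the sources used here.

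*Kl* (chr5:150952607-150993817, plus strand) encodes klotho, the co-receptor through which FGF23 acts on the kidney. Its young values were 282, 331, 352 and 408 CPM. Vehicle held 243, 231 and 216 CPM, below every young library, and ABT-737 held 252, 342 and 266 CPM, above every vehicle library and overlapping young. Vehicle was 1.49-fold lower than young (-0.58 on the log2 scale, SE 0.154, adjusted p = 0.0211 by edgeR), while ABT-737 differed from vehicle by 0.32 (SE 0.164, adjusted p = 0.389 by edgeR). With vehicle replicate 4 left out the change was -0.58 (adjusted p = 0.0636), with vehicle replicate 5 left out -0.53 (adjusted p = 0.0886) and with young replicate 4 left out -0.48 (adjusted p = 0.0696), all by edgeR and none of them past the threshold. Its size therefore moved little, and its side of the threshold rested on single libraries.

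*Slc12a3* (chr8:94329208-94366221, plus strand) encodes NCC, the thiazide-sensitive sodium chloride cotransporter of the distal convoluted tubule. Young kidneys held 522, 424, 523 and 446 CPM, vehicle 593, 856 and 672 CPM and ABT-737 617, 636 and 570 CPM, so all 6 old libraries were above all 4 young ones. The rise in vehicle was 1.48-fold (0.56, SE 0.148, adjusted p = 0.0196 by edgeR), and ABT-737 differed from young by 0.34 (SE 0.148, adjusted p = 0.251 by edgeR) and from vehicle by -0.22 (95% interval -0.56 to 0.12). The call was lost when young replicate 2 (0.49, adjusted p = 0.0762), young replicate 4 (0.53, adjusted p = 0.0608) or vehicle replicate 4 (0.40, adjusted p = 0.120) was left out of the edgeR fit.

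The proximal tubule members did not pass in any of the kidney comparisons. *Slc34a1* (chr13:55399648-55414695, plus strand), the sodium phosphate cotransporter NaPi-IIa of the brush border, held 6486, 5481, 5775 and 6347 CPM in young, 5269, 4958 and 5080 CPM in vehicle and 6002, 5260 and 7407 CPM in ABT-737 kidneys. All 3 vehicle values lay below all young ones, yet by little: the difference was -0.24 (95% interval -0.57 to 0.09, adjusted p = 0.342 by edgeR). *Aqp1* (chr6:55336299-55348555, plus strand), the constitutive water channel of the proximal tubule and descending thin limb and also of capillary endothelium, held 901, 805, 809 and 825 CPM in young, 1024, 813 and 1255 CPM in vehicle and 894, 808 and 901 CPM in ABT-737 kidneys. Its difference between vehicle and young was 0.31 (95% interval -0.01 to 0.62, adjusted p = 0.193 by edgeR), and the groups overlapped.

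*Aqp2* (chr15:99579056-99584545, plus strand), the vasopressin-regulated channel of the collecting duct, spread widely among old mice. The 4 young values were tightly grouped at 536, 513, 535 and 537 CPM. The vehicle libraries held 336, 205 and 527 CPM and the ABT-737 libraries 221, 245 and 641 CPM, so in each old group replicate 5 sat near or above young and the other pair far below. The difference between vehicle and young was -0.57 (95% interval -1.25 to 0.11, adjusted p = 0.265 by edgeR) and between ABT-737 and young -0.52 (adjusted p = 0.439 by edgeR). With both old groups together against young the change was -0.55 (adjusted p = 0.207 by edgeR). Without ABT-737 replicate 5, the library at 641 CPM, the change in ABT-737 over young became -1.19 (adjusted p = 0.0315) and that in both old groups together became -0.88 (adjusted p = 0.0106), both by edgeR.

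**Figure D2:**
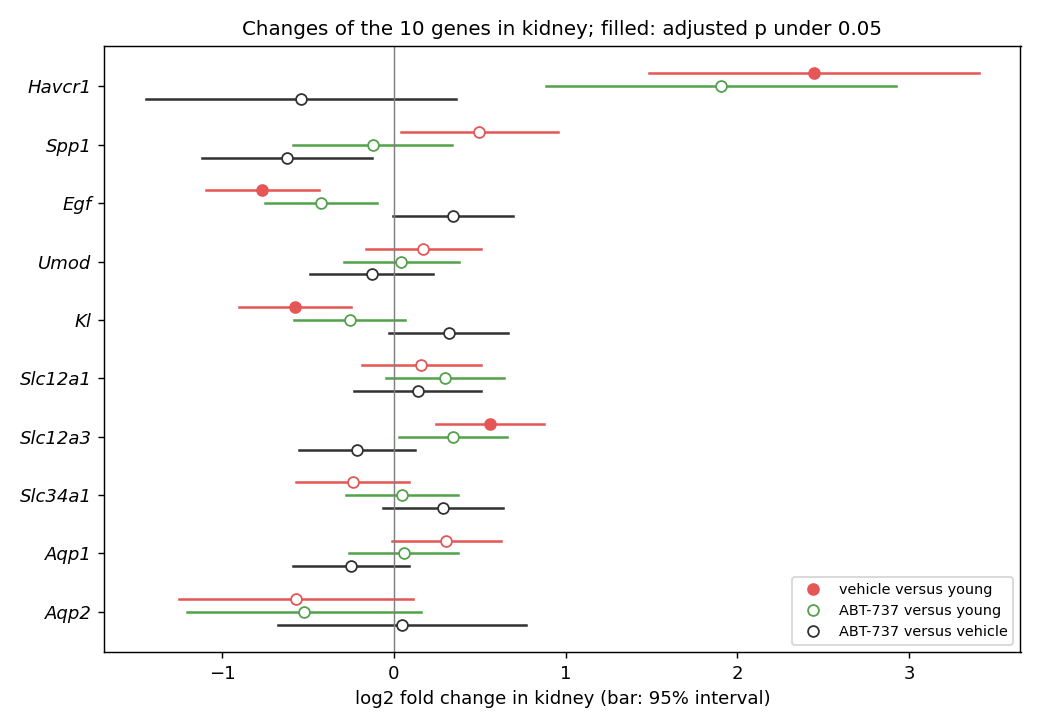
Log2 fold change (x axis) of each member (y axis) in kidney for vehicle versus young (red), ABT-737 versus young (green) and ABT-737 versus vehicle (black), with 95% intervals from the edgeR fit and filled points where the adjusted p was under 0.05. The filled points are the vehicle versus young changes of Havcr1 (2.44), Egf (-0.77), Kl (-0.58) and Slc12a3 (0.56), and each comparison shares a group with the other two.

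With both old groups set together against young (6 libraries against 4), the same 4 members passed, beside a background of 10.7%. *Havcr1* rose by 2.17 (SE 0.410, adjusted p = 0.00290), *Egf* fell by 0.59 (SE 0.127, adjusted p = 0.00720), *Slc12a3* rose by 0.45 (SE 0.127, adjusted p = 0.0328) and *Kl* fell by 0.42 (SE 0.128, adjusted p = 0.0464), on the log2 scale and by edgeR. With 1 library left out, the adjusted p of *Kl* ranged from 0.0128 to 0.168 and passed without young replicate 1, vehicle replicate 3 or ABT-737 replicate 4, and that of *Slc12a3* ranged from 0.0146 to 0.131 and passed without those or ABT-737 replicate 5. This comparison uses the same young and vehicle libraries as the first and is no independent support of it. The groups of 5 members did not overlap between vehicle and young (27.8% of all genes tested), those of 2 members, *Havcr1* and *Slc12a3*, did not overlap between ABT-737 and young (16.2%) or between both old groups and young (8.84%), and those of *Kl* alone did not overlap between ABT-737 and vehicle (15.2%). For ABT-737 against vehicle, where edgeR called 0 members, DESeq2 also called 0, and *Spp1* alone had an unadjusted p under 0.05, as had 1647 of all genes tested. For ABT-737 against young, where edgeR called 0 members, DESeq2 called *Havcr1*, and *Havcr1*, *Egf* and *Slc12a3* had an unadjusted p under 0.05, as had 1862 of all genes tested.

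The sequences just upstream of the 4 members that passed are shown because they are the stretches a reader would compare first among genes that moved in opposite directions. They are the 250 bases before the transcript start used for counting, from the RefSeq promoter table of build GRCm38.p6, read 5′ to 3′ on the strand of the gene. All 10 members matched an entry of that table. Capitals mark a TATA box (TATAAA), a core HNF1 motif (GTTAAT) or an E-box (CACGTG), each searched on both strands, where present. The *Havcr1* stretch lies at chr11:46750918-46751167 on the plus strand, that of *Egf* at chr3:129755323-129755572 on the minus strand, *Kl* at chr5:150952357-150952606 on the plus strand and *Slc12a3* at chr8:94328958-94329207 on the plus strand.
Havcr1: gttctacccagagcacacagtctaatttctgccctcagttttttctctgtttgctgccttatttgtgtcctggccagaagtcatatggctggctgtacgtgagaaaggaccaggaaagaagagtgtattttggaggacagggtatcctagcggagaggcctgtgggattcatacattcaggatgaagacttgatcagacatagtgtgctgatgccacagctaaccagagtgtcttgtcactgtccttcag
Egf: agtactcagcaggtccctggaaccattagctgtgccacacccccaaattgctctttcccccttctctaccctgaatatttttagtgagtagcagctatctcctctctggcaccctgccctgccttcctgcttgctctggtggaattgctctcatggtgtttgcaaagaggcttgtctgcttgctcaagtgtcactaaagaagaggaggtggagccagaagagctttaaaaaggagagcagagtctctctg
Kl: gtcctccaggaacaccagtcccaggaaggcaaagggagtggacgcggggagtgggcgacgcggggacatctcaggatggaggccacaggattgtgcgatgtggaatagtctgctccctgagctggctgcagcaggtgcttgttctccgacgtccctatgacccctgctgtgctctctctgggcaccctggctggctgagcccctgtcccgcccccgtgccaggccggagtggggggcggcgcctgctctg
Slc12a3: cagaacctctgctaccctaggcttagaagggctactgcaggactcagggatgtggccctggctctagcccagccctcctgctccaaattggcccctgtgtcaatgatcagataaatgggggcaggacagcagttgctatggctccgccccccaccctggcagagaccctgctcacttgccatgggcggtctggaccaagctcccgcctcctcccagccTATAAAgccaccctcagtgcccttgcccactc
*Slc12a3* had a TATA box 32 bases before its start, a motif held by 12.4% of the 32851 promoters of the table, and the other three had none of the 3 motifs in this window. The *Kl* stretch was rich in G and C (66.8%, with 13 CpG dinucleotides), that of *Egf* had 50.4% G and C and no CpG, *Havcr1* had 47.6% and *Slc12a3* 61.2%, against a median of 52.4% and 6 CpG over the table. Of the other members, *Spp1*, *Umod* and *Slc34a1* held the HNF1 motif (6.43% of promoters) and *Aqp2* the E-box (6.02%), and *Spp1* also held a TATA box, 211 bases before its start. These matches describe letters and not binding.

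The segments that the members stand for were then described by lists of marker genes, also written with earlier results of these data known. Of 24 proximal tubule genes, 9 fell and none rose in vehicle over young (background 5.5% lower and 7.75% higher), with a median log2 change of -0.35, against 0.0062 over all genes tested. They included *Slc6a19* (-1.37), the neutral amino acid transporter B0AT1, *Keg1* (-1.26), *Slc5a12* (-1.22), a lactate transporter, and *Slc7a13* (-0.90), and also the endocytic receptor gene *Lrp2* (megalin), which went from 401, 475, 512 and 509 CPM in young to 261, 222 and 308 CPM in vehicle (-0.84, SE 0.164, adjusted p = 0.00280 by edgeR). Its partner *Cubn* (cubilin) differed by 0.06 (adjusted p = 0.833 by edgeR). In ABT-737 over vehicle, 3 of the 24 rose and none fell (background 0.135% higher): *Slc5a12* (1.09), *Gatm* (0.75) and *Lrp2* (0.74, SE 0.174, adjusted p = 0.0439 by edgeR), the last with 501, 478 and 349 CPM in the ABT-737 libraries. *Slc34a1* and *Aqp1* are both on this list and were not among the 9. With 1 library left out, 6 (without vehicle replicate 5) to 12 (without vehicle replicate 3) of the 24 fell in vehicle, and 1 (without vehicle replicate 4, or without either of replicates 3 and 4 of the ABT-737 arm) to 7 (without vehicle replicate 3) rose in ABT-737 over vehicle.

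In the thick ascending limb list, 3 of 16 genes fell in vehicle over young and none rose (background 5.5% lower and 7.75% higher). They were the member *Egf*, the claudin gene *Cldn10* (-0.68) and the transcription factor gene *Irx1* (-0.66). The calcium-sensing receptor gene *Casr* differed by -0.11 (adjusted p = 0.666 by edgeR). Without vehicle replicate 4, 1 of the 16 fell. None of the 16 was called after ABT-737 against vehicle or young with all libraries (background 1.35% and 2.12%).

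The distal convoluted tubule list split in direction in vehicle over young (background 7.75% higher and 5.5% lower). *Slc12a3* rose while 3 of the 12 genes fell: *Calb1*, the calcium buffer calbindin-D28k (-2.36, SE 0.283, adjusted p = 4.63e-05 by edgeR), *Tmem52b* (-1.35) and the basolateral potassium channel gene *Kcnj10* (-0.70). *Calb1* held 142, 160, 155 and 198 CPM in young, 34.2, 30.8 and 30.5 CPM in vehicle and 28.8, 77.7 and 28.6 CPM in ABT-737 kidneys, and in ABT-737 over young it fell by 1.86 (SE 0.272, adjusted p = 0.00184 by edgeR). The parvalbumin gene *Pvalb* (-1.19), *Kcnj10* (-1.12) and *Tmem52b* (-0.94) fell with it, so 4 of the 12 genes were lower in ABT-737 than in young (background 0.737% lower). Without young replicate 4 or ABT-737 replicate 5, 2 of them were. The count of *Slc12a3* per count of *Calb1*, again chosen after the values were seen, averaged 2.99 in the young kidneys (SD 0.655), 22.4 in the vehicle kidneys (SD 5.24) and 16.5 in the ABT-737 kidneys (SD 7.27). *Trpv5*, the apical calcium channel of the same segment, had at most 1 count in any kidney library and was not tested.

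In the collecting duct, 4 of 12 principal cell genes fell and 1 rose in vehicle over young (background 5.5% lower and 7.75% higher). The basolateral water channel genes moved apart, with *Aqp3* at -0.95 and *Aqp4* at 0.92, while *Hsd11b2*, whose enzyme keeps cortisol and corticosterone from the mineralocorticoid receptor, fell by 0.76, *Scnn1b*, a subunit of the epithelial sodium channel, fell by 0.64 (SE 0.195, adjusted p = 0.0412 by edgeR) and *Fxyd4* fell by 0.54. *Scnn1b* held 42.9, 43.3, 43.0 and 36.9 CPM in young and 23.6, 28.05 and 29.1 CPM in vehicle kidneys. The count of *Aqp2* per count of *Aqp3* averaged 11.8 in young (SD 1.29), 15.3 in vehicle (SD 3.75) and 11.8 in ABT-737 kidneys (SD 6.56), with overlapping ranges. Among 12 intercalated cell genes, 6 fell and none rose in vehicle (median -0.75), led by *Atp6v0d2* (-1.40), the pendrin gene *Slc26a4* (-1.37), *Atp6v1b1* (-0.81) and *Insrr* (-0.78), and 5 fell in ABT-737 over young, with *Hmx2* at -1.25, *Insrr* at -0.98, *Slc26a4* at -0.88 and *Atp6v1b1* at -0.77. The background of ABT-737 over young was 0.737% lower. With any 1 young library, vehicle replicate 4 or vehicle replicate 5 left out, 2 principal cell genes fell in vehicle, while 5 to 8 intercalated cell genes fell with any library left out. The 5 intercalated cell calls of ABT-737 over young depended on single libraries: 0 were left without young replicate 1 or 2, 1 without young replicate 3 or ABT-737 replicate 5, 2 without young replicate 4 or ABT-737 replicate 3, and 3 when replicate 4 of the ABT-737 arm was left out. None of the principal or intercalated cell genes was called between ABT-737 and vehicle (background 1.35%).

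**Figure D3:**
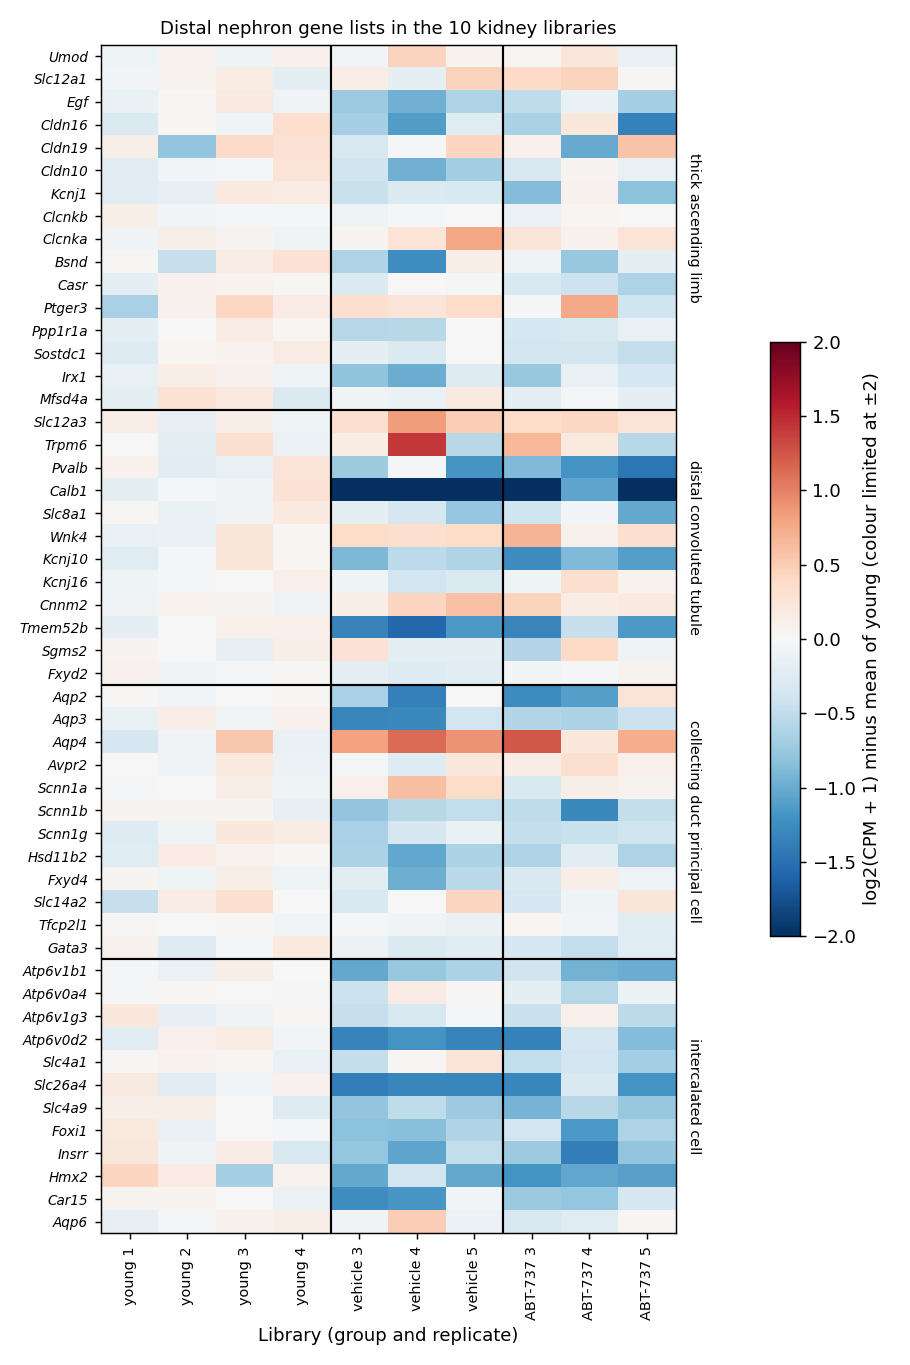
Each row is a tested gene of the thick ascending limb, distal convoluted tubule, principal cell and intercalated cell lists and each column 1 kidney library; colour is log2(CPM + 1) minus the mean of the 4 young libraries, with blue lower, red higher and the scale limited at 2 in both directions. Calb1, Tmem52b, Slc26a4 and Atp6v0d2 are blue in all 6 old libraries, Slc12a3 is red in all 6, and Aqp2 is well below young in 4 of the 6.

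The injury list moved the opposite way. It holds *Havcr1* and *Spp1* among 33 genes, of which 28 were tested, and 17 rose and none fell in vehicle over young (median 0.99). The background was 7.75% higher and 5.5% lower. The largest called changes were those of *C3* (2.92), the central complement component, *Ccl2* (2.79), a monocyte chemokine, *Lcn2* (2.67, SE 0.416, adjusted p = 0.000490 by edgeR), the gene of the urinary injury marker NGAL, and *Havcr1*. *Lcn2* held 3.00, 1.93, 4.68 and 7.85 CPM in young, 19.2, 41.0 and 22.1 CPM in vehicle and 4.11, 9.40 and 14.5 CPM in ABT-737 kidneys. *Vcam1*, an adhesion molecule gene switched on in tubule cells that fail to repair, rose by 1.93 (SE 0.359, adjusted p = 0.00189 by edgeR), from 3.43, 4.13, 2.63 and 3.69 CPM to 8.25, 23.3 and 10.8 CPM. *Havcr1* and *Vcam1*, low in every young library, passed the filter through the old groups. The direction of such injury genes was partly set by the filter. Vehicle replicate 4 stood apart in this list: the summed level was 1980 to 2192 CPM in young, 2363, 4497 and 2789 CPM in vehicle replicates 3, 4 and 5, and 2111 to 2316 CPM in ABT-737 kidneys. The same library had the highest T and B cell sum and the lowest proximal tubule sum (38150 CPM, against 46397 and 43318 CPM in replicates 3 and 5). Without it 14 of the 28 injury genes rose and none fell (median 0.84). *Krt20* stayed below the filter with 0 to 6 counts. In ABT-737 over vehicle, *C3* (-1.84) and *S100a6* (-0.99) fell and none rose (background 1.21% lower), *Lcn2* differed by -1.51 (adjusted p = 0.102 by edgeR) and *Vcam1* by -1.12 (adjusted p = 0.166 by edgeR), and in ABT-737 over young 3 of the 28 rose, *Fga* (1.61), *Gdf15* (1.41) and *Cdkn1a* (1.37), beside a background of 1.38% higher. Without vehicle replicate 3, 7 injury genes fell in ABT-737 over vehicle, and without ABT-737 replicate 3 or 4, 1 did; without vehicle replicate 4, 5 rose in ABT-737 over young.

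Markers of infiltrating cells and of blood moved with these groups. All 12 tested macrophage genes rose in vehicle over young, and their summed level went from 558 to 730 CPM in young to 2600 to 3740 CPM in vehicle, against 830 to 1301 CPM in ABT-737 kidneys. Of 15 listed T and B cell genes, 10 were tested, and all 10 rose as well (background 7.75% higher). The sum of the 15 went from 22.6 to 24.9 CPM in young to 106 to 248 CPM in vehicle, against 39.1 to 70.9 CPM with ABT-737. Genes so low in young could pass the filter mainly through the old groups, so the direction of those tested was partly set by the filter. Without vehicle replicate 4, whose T and B cell sum was the 248 CPM, 7 of 11 tested T and B cell genes and 11 of 12 macrophage genes rose. In ABT-737 over vehicle 7 macrophage and 4 T and B cell genes fell (background 1.21% lower), and with 1 kidney library left out 2 to 8 and 1 to 4 did, the fewest without ABT-737 replicate 4. The blood list, globin genes among them, summed to 1043 to 1442 CPM in young replicates 2 to 4, 5914 CPM in young replicate 1, 11663 to 11717 CPM in vehicle and 7616 to 11314 CPM in ABT-737 kidneys, although the tissues were harvested after perfusion. Several injury genes, *C3*, *Ccl2*, *Vim* and *Timp1* among them, and *Spp1* are also expressed by immune cells, and the part of those cells in the changes was not tested. Clock genes differed between young and both old groups: *Dbp* fell by 3.93 and *Arntl* rose by 2.86 in vehicle, and 9 of 14 tested clock genes were called (background 13.3%), whereas 0 of 14 were called between ABT-737 and vehicle (background 1.35%). The part of the clock in the member changes was not tested.

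**Figure D4:**
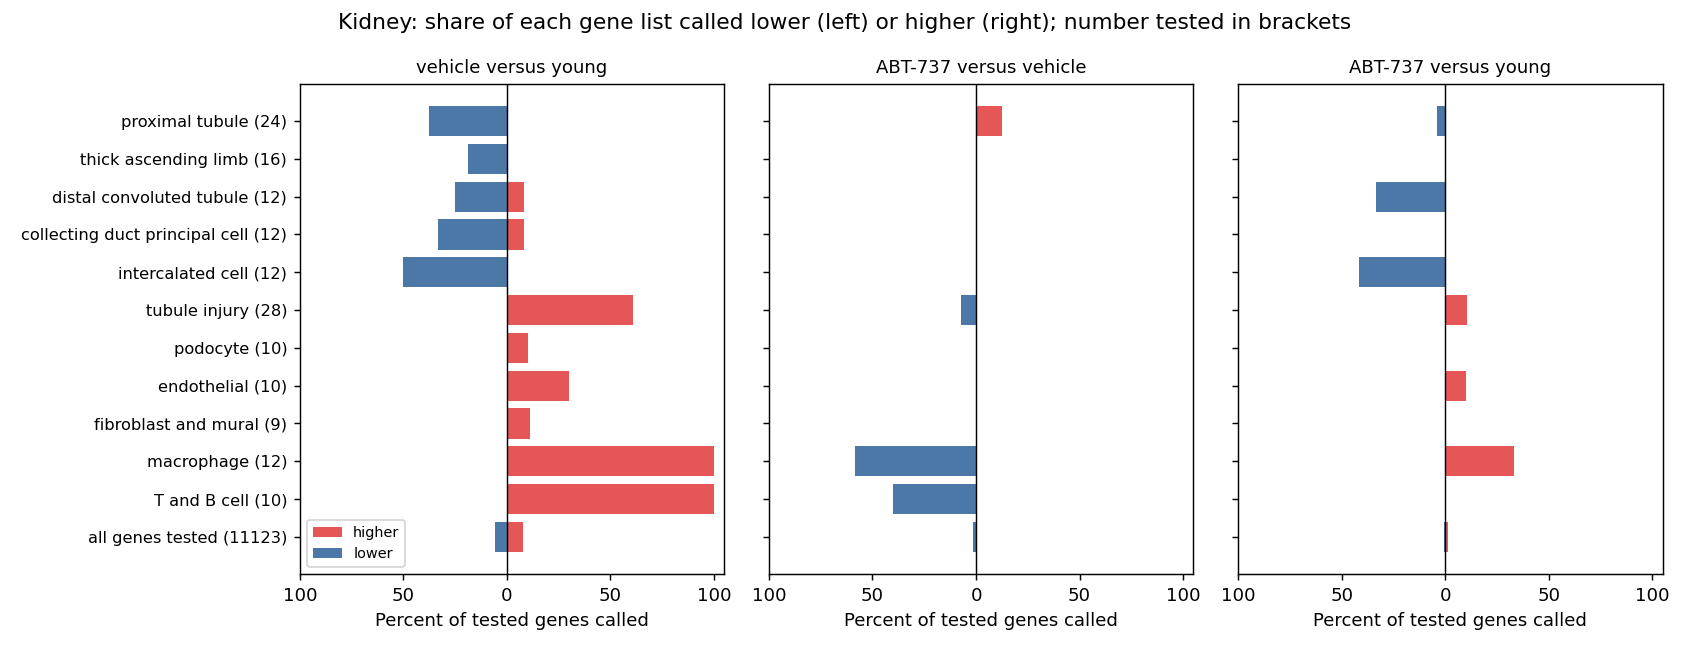
Percent of the tested genes of each list (rows, number tested in brackets) that were called lower (blue, to the left) or higher (red, to the right) in kidney, for vehicle versus young, ABT-737 versus vehicle and ABT-737 versus young. In vehicle versus young the tubule segment lists extend to the left (9 of 24 proximal tubule genes) and the injury list to the right (17 of 28), and the macrophage and T and B cell lists reach 100%, next to 13.3% of all genes tested in both directions together. For T and B cells, 10 of 15 listed genes passed the filter, which low young values favour only for genes high in the old groups. Injury genes low in young, such as Havcr1 and Vcam1, also passed through the old groups.

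Klotho acts within a loop that balances phosphate, calcium and vitamin D, and 16 of the 19 listed genes of that loop were tested. In vehicle over young (background 5.5% lower and 7.75% higher), 4 fell, *Calb1*, *S100g* (calbindin-D9k, -0.73), *Slc34a3* (the second renal phosphate cotransporter, -0.63) and *Kl*, and 1 rose. The latter was *Cyp27b1*, which makes active vitamin D and is repressed by FGF23 acting through klotho, with 2.57, 3.86, 2.05 and 2.77 CPM in young, 6.28, 26.7 and 23.01 CPM in vehicle and 6.68, 4.45 and 22.8 CPM in ABT-737 kidneys (2.63, SE 0.552, adjusted p = 0.00488 by edgeR). Low in every young library, *Cyp27b1* passed the filter through the old groups, so its direction was partly set by the filter. *Cyp24a1*, which degrades active vitamin D, held 25.7, 20.1, 26.9 and 20.3 CPM in young, 25.9, 95.1 and 52.1 CPM in vehicle and 59.6, 172 and 45.2 CPM in ABT-737 kidneys. It differed by 1.26 in vehicle over young (adjusted p = 0.0619 by edgeR) and rose by 1.98 in ABT-737 over young (adjusted p = 0.0176 by edgeR). The FGF23 receptor gene *Fgfr1* differed by 0.18 in vehicle (adjusted p = 0.570 by edgeR). The phosphate cotransporter genes *Slc34a1*, *Slc20a1* and *Slc20a2* of the list did not pass. Without vehicle replicate 5, 1 of the 16 fell, and without young replicate 4, 2 fell.

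Of 15 listed EGF receptor ligands and receptors, 8 were tested, and 2 rose and 2 fell in vehicle over young. For this and the next 3 lists, the background in vehicle over young was 7.75% higher and 5.5% lower. *Nrg1*, a ligand of ERBB3 and ERBB4, rose 4.004-fold and the receptor gene *Erbb2* rose by 0.74, while *Egf* and *Adam10*, a sheddase of EGF family ligands (-1.35), fell. *Egfr* itself held 12.01, 14.6, 9.07 and 10.6 CPM in young, 24.7, 19.2 and 19.7 CPM in vehicle and 9.25, 26.2 and 13.5 CPM in ABT-737 kidneys, a difference of 0.88 in vehicle that missed the threshold (adjusted p = 0.0546 by edgeR). Among 14 tested regulators of salt transport, the kinase gene *Sgk1* rose by 1.08 and *Hsd11b2* and *Kcnj10* fell in vehicle, and among 8 tested partners of osteopontin and KIM-1 the integrin genes *Itgb3* (1.74) and *Itga4* (1.38) rose. *Itga4*, which leukocytes express, fell by 2.29 in ABT-737 over vehicle (background 1.21% lower). Of 12 genes that process or regulate uromodulin, *Sec61a1*, a subunit of the channel into the endoplasmic reticulum, rose by 0.47 in vehicle and by 0.54 in ABT-737 over young. In vehicle this was 1 of 12 genes, near the share of all genes called higher. In ABT-737 over young that share was 1.38%. These small counts moved with single libraries: without vehicle replicate 4 none of the 8 partners was called, as without young replicate 3, and *Sgk1* did not pass. The vehicle call of *Sec61a1* was lost without any 1 of young replicates 2 to 4 or of vehicle replicates 4 and 5, and without vehicle replicate 5, 1 gene of the EGF list fell and 1 rose.

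Several members varied together over the 10 kidney libraries. The correlation of log2(CPM + 1) over libraries was 0.85 between *Egf* and *Kl*, -0.86 between *Egf* and *Havcr1* and 0.76 between *Spp1* and *Umod*. These are descriptions over 10 libraries of 3 groups, with library composition in common. The genes most like *Havcr1* were *Dmap1* (r = 0.97), *Tnfrsf12a* (r = 0.97), the TWEAK receptor gene that is also on the injury list, and *Tgfbi* (r = 0.93). Those most like *Egf* were *Hsd11b2* (r = 0.97), 2310035C23Rik (r = 0.96) and *Tmem52b* (r = 0.96), 2 of them distal nephron genes. *Kl* was nearest to *Dram2* (r = 0.98), *Actr10* (r = 0.97) and *Fam91a1* (r = 0.97), *Slc12a3* to *Cnp* (r = 0.96), *Fermt3* (r = 0.95) and *Fgb* (r = 0.95), *Spp1* to *Pygb* (r = 0.95), *Pros1* (r = 0.94) and *Jak3* (r = 0.94), and *Umod* to *Nos3* (r = 0.96), *Capn10* (r = 0.91) and *Shisa5* (r = 0.91). *Slc12a1* was nearest to *Aak1* (r = 0.93), *Asxl3* (r = 0.92) and *Tdrp* (r = 0.92), *Slc34a1* to *Xndc1* (r = 0.98), *Serpinf2* (r = 0.91) and *Cyba* (r = 0.90), *Aqp1* to *Tmem72* (r = 0.90) and *Cmip* (r = 0.87), and *Aqp2* to *Coa4* (r = 0.96), *Pnmal2* (r = 0.94) and *Slc26a1* (r = 0.94).

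Outside the kidney most members were at or near 0. In liver, where libraries held 223957 to 891116 counts, *Havcr1*, *Kl* and *Aqp2* had no count in any of 10 libraries and *Egf*, *Umod*, *Slc12a1*, *Slc12a3* and *Slc34a1* at most 2. In lung *Havcr1* had 0 to 19 counts, *Slc34a1* 0 to 13, and the other tubule genes at most 7. Of the 10 members, *Spp1* and *Aqp1* passed the filter in liver and in lung, and *Spp1*, *Egf* and *Aqp1* in skin. Skin was counted in a separate table on longer intervals that run up to 2000 bases past the 3′ end, and *Egf* there on a short transcript, so its levels are not set beside those of the other tissues.

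*Spp1* in lung showed a larger change than in kidney. Young lungs held 34.8, 28.5, 41.8 and 23.4 CPM, vehicle lungs 192, 89.2 and 213 CPM and ABT-737 lungs 63.1, 91.7 and 137 CPM. The rise was 2.36 in vehicle over young (SE 0.348, adjusted p = 0.00259 by edgeR, background 12.9%) and 1.60 in ABT-737 over young (SE 0.348, adjusted p = 0.0384 by edgeR, background 2.55%). Both old groups together rose by 1.98 (SE 0.314, adjusted p = 0.00537 by edgeR, background 10%). The ABT-737 call was lost without any 1 of the 4 young replicates (1.48 to 1.75) and without ABT-737 replicate 5 (1.25, adjusted p = 0.175 by edgeR). ABT-737 differed from vehicle by -0.76 (95% interval -1.53 to 0.02, adjusted p = 0.324 by edgeR); no gene in lung was called in that comparison by edgeR (0%), with 1919 at an unadjusted p under 0.05 and 308 called by DESeq2. In edgeR 676 genes were called there when replicate 4 of the ABT-737 lungs was left out, 122 when replicate 5 of that arm was, and 359 without the filter, *Spp1* not among them. The change of *Spp1* in vehicle over young was smaller in kidney than in lung by 1.87 on the log2 scale (SE 0.446, adjusted p = 0.0166 by edgeR on the difference), and that of both old groups by 1.80 (SE 0.381, adjusted p = 0.0126). Without vehicle replicate 5 of lung the first difference was -1.62 and missed the threshold (adjusted p = 0.0529).

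In liver *Spp1* held 60.0, 32.8, 35.3 and 42.2 CPM in young, 0, 203 and 62.9 CPM in vehicle and 7.93, 20.9 and 17.3 CPM in ABT-737 libraries. Vehicle replicate 3, listed at 0, was also the smallest library of the series, and 3 counts there would be 13.1 CPM. No liver comparison of *Spp1* or *Aqp1* passed, beside backgrounds of 22.6% for vehicle over young, 3.85% for ABT-737 over vehicle, 8.4% for ABT-737 over young and 20.8% for both old groups over young (*Spp1* in vehicle over young 1.26, adjusted p = 0.114; ABT-737 over vehicle -2.59, adjusted p = 0.0653; by edgeR), although all 3 comparisons of *Spp1* between single groups passed when genes with low counts were kept in the fit. In skin *Spp1* held 2.17, 2.30 and 2.73 CPM in young, 7.47, 10.3 and 59.0 CPM in vehicle and 6.23, 2.74 and 3.96 CPM in ABT-737 libraries. Low in every young library, *Spp1* passed the skin filter through the old groups. The rise in vehicle was 3.40 (SE 0.852, adjusted p = 0.0359 by edgeR, background 11.2%) and rested on replicate 5, without which it was 1.86 (adjusted p = 0.0706 by edgeR); it also missed the threshold without any of the 3 young replicates (3.33 to 3.49) or without ABT-737 replicate 5 (3.39). With all libraries, edgeR and the filter on low counts, no other comparison of the members tested in skin passed. *Spp1* in both old groups over young passed by DESeq2 (2.13, adjusted p = 0.0311) and in edgeR without the filter (2.15, adjusted p = 0.0306). The shares of all genes called in skin were 0% for ABT-737 over vehicle, where 1134 genes had an unadjusted p under 0.05 and DESeq2 called 59, 5.17% for ABT-737 over young and 15.5% for both old groups over young.

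**Figure D5:**
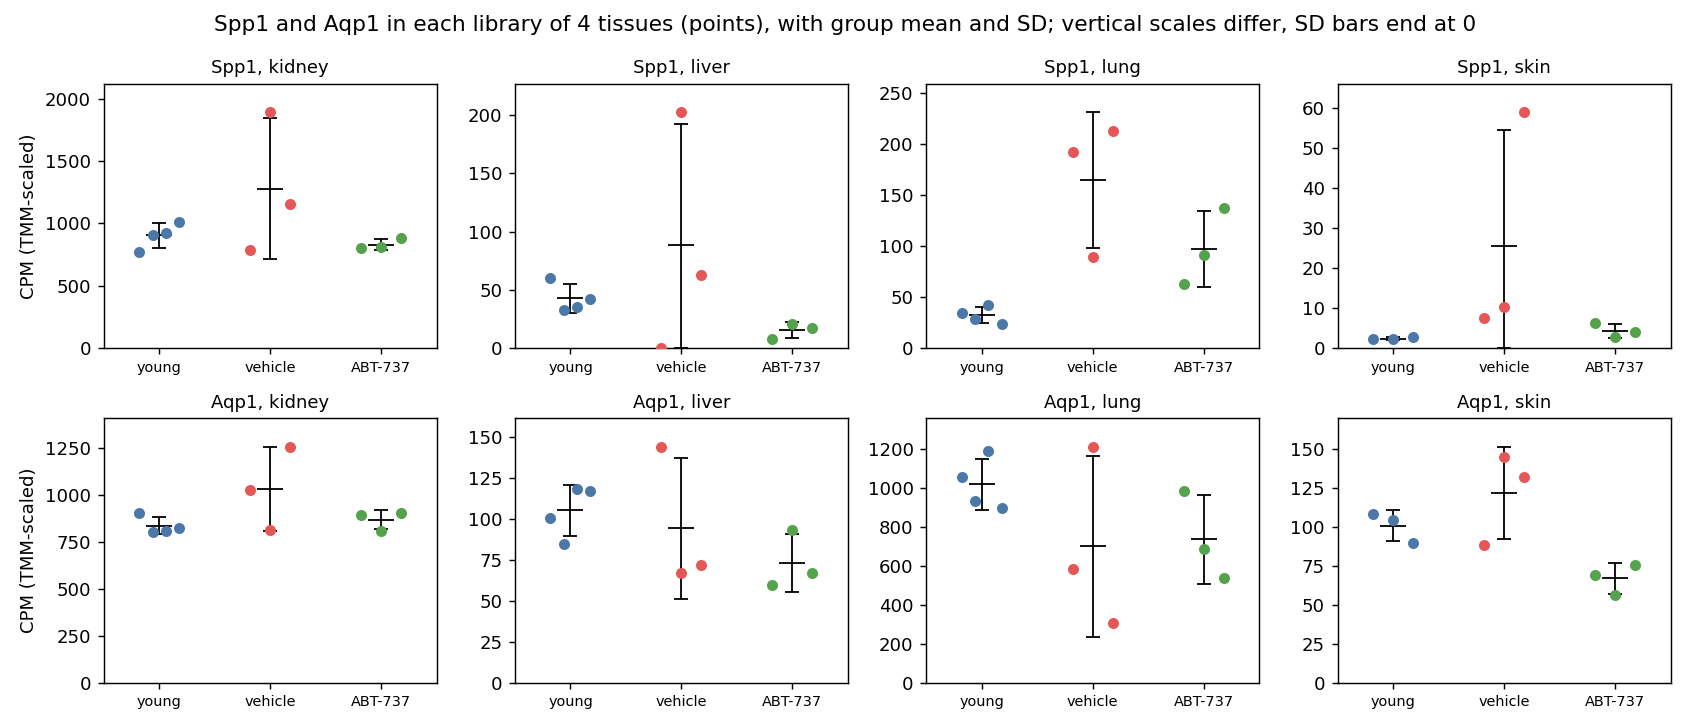
TMM-scaled CPM of Spp1 (top) and Aqp1 (bottom) in each library of kidney, liver, lung and skin, with group means and SD (bars end at 0) on axes that start at 0 and differ between panels. Spp1 in lung held 23.4 to 41.8 CPM in young and 63.1 to 213 CPM in both old groups, while the Aqp1 groups overlap in kidney, liver and lung.

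*Aqp1* was strongly expressed in lung, where it marks capillary endothelium, with 1056, 931, 1188 and 896 CPM in young, 585, 1211 and 306 CPM in vehicle and 983, 688 and 537 CPM in ABT-737 libraries. Scaled separately by tissue, its level in young lung was 1018 ± 133 CPM (SD, n = 4), against 835 ± 44.7 CPM (SD, n = 4) in young kidney and 105.2 ± 15.7 CPM (SD, n = 4) in young liver, and the lung and kidney ranges overlapped in part. With all libraries no comparison of *Aqp1* passed in any of the 4 tissues. Without lung vehicle replicate 4, the library at 1211 CPM, vehicle over young in lung was -1.20 and passed (adjusted p = 0.0401 by edgeR), against -0.54 with it. The change of *Aqp1* did not differ between kidney and lung (0.85 in vehicle over young, adjusted p = 0.229 by edgeR) or between kidney and liver (0.58, adjusted p = 0.404 by edgeR) beyond the threshold. In skin, *Aqp1* held 69.3, 56.4 and 75.6 CPM in ABT-737 and 88.3, 145 and 132 CPM in vehicle libraries, a difference of -0.86 (95% interval -1.36 to -0.36) with an adjusted p of 0.476 by edgeR. *Egf* in skin held 3.59 to 15.8 CPM over all 9 libraries with no comparison passing.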

How the data were processed

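The deposited counts were used as the authors made them: whole-number counts of reads or molecules per transcript, not normalized, with kidney, liver and lung (RefSeq transcripts) in one table and skin in another. Per the submitters' processing notes, the tools were bcl2fastq, HISAT 0.1.5 and HOMER on genome build mm10; whether molecular barcodes were collapsed and the strand setting were not given in the sources used here. CPM and all tests were computed from these counts with R 4.3.3, edgeR 4.0.16 and limma 3.58.1, separately by tissue: genes were filtered with filterByExpr (minimum count 10), scaled by TMM and fitted with the 3 groups in a single quasi-likelihood model, with Benjamini-Hochberg adjustment over all genes tested and a threshold of 0.05. The difference in change between kidney and liver or lung was tested in a joint fit of both tissues. That fit treated all libraries as independent, although those of the same group and number may come from the same mouse. DESeq2 1.42.0 was an alternative; the others were DESeq2 size factors, no filter on low counts, a replicate-number block, a fit of the compared groups alone, a minimum log2 change of 1, and each library left out in turn. The code was tested on simulated counts. Kidney libraries held 1431814 to 3513311 counts, liver 223957 to 891116, lung 1046508 to 2600092 and skin 1493411 to 3842808; counting error alone limits genes with a few counts, and a count of 0 allows up to 3 counts. The members and the marker lists were chosen with earlier results of these data known. Genes named in the text are all members, up to 4 called genes of each list and comparison with the largest change, the 3 genes most correlated with each member (log2(CPM + 1)), and 12 genes fixed by name; some further called list genes were named after their values were seen, and 1 correlated gene is not reported here. No column of the tables was left unused.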

Additional observations from a re-analysis of the deposited data

Results flagged for a closer look

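In young kidney the lowest of the 4 *Aqp2* values, 512.9 CPM in replicate 2, stood apart from the other three, at 535 to 537 CPM; it was the 1 such value among 14 groups of 4 libraries of tested members, and chance alone gives about 1 in 20.

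The change of *Spp1* differed between kidney and lung: it was smaller in kidney by 1.87 on the log2 scale for vehicle over young (-1.87) and by 1.80 for both old groups over young (-1.80), each by edgeR on the difference itself.

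Counts of 3 tubule members were seen in skin although they were below the filter there. *Umod* had 30, 6 and 15 counts in the ABT-737 skin libraries (51 in all) and 0 in all 6 young and vehicle libraries, *Slc34a1* had 2, 2 and 24 counts (28 in all) against 1 count in each of the other groups, and *Slc12a3* had 4, 2 and 6 counts (12 in all) against 0. The 3 genes were flagged because their lowest ABT-737 count exceeded every young and vehicle count, so calls between the same groups are no separate support. *Umod* was called in skin between ABT-737 and young by DESeq2 (1943 of 17111 genes called). In edgeR it was called there without the filter (1667 of 29019) and without vehicle replicate 5 (1077 of 14583). Between ABT-737 and vehicle it was called in edgeR without the filter (32 of 29019) and not by DESeq2.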

How the results depend on the processing

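Over the alternatives, *Havcr1* in vehicle over young was called in all 15 fits, at 2.05 to 3.07. With the replicate-number block, 2 members passed in vehicle over young and 2 in both old groups over young, *Havcr1* and *Aqp2* each time; with a minimum absolute log2 change of 1, 1 and 1 passed; in ABT-737 over young, 1 member, *Havcr1*, passed by DESeq2, without the filter and with the compared groups alone. With 1 library left out, the members called ranged from 2 to 5 in vehicle over young, from 0 to 1 in ABT-737 over vehicle, from 0 to 1 in ABT-737 over young and from 2 to 4 in both old groups over young. Same-numbered kidney libraries did not deviate together between vehicle and ABT-737 (correlations -0.19, -0.22 and 0.02), so the numbers are not taken as pairs. With the block, vehicle over young was -0.80 for *Egf* (adjusted p = 0.104), -0.67 for *Kl* (adjusted p = 0.119), 0.57 for *Slc12a3* (adjusted p = 0.221) and -1.08 for *Aqp2* (adjusted p = 0.0316), and *Havcr1* in ABT-737 over young was 2.58 (adjusted p = 0.154), all by edgeR. The joint fit of kidney and lung used another block, which took libraries of the same group and number as 1 mouse. There the *Spp1* difference of kidney and lung in vehicle over young was -1.90 (adjusted p = 0.0267 by edgeR). The replicate-number block in kidney reversed *Aqp2* in ABT-737 over vehicle (-0.031), *Slc34a1* (-0.040) and *Aqp1* (-0.0057) in ABT-737 over young, and moved the genes called from 1474 to 369, 150 to 59, 236 to 33 and 1194 to 179. Without the filter these counts were 1818, 368, 452 and 1443, and with the compared groups alone 1858, 69 and 286. Uncalled changes that turned sign with 1 library left out were, with their ranges, ABT-737 over vehicle for *Umod* (-0.23 to 0.029), *Slc12a1* (-0.0028 to 0.30) and *Aqp2* (-0.61 to 0.43), ABT-737 over young for *Slc34a1* (-0.10 to 0.15) and *Umod* (-0.068 to 0.12), *Spp1* in both old groups (-0.013 to 0.31), *Slc12a1* in vehicle over young (-0.013 to 0.30), *Aqp1* in lung (-0.30 to 0.72), *Egf* in skin (-0.70 to 0.73) and the *Spp1* difference of kidney and lung for ABT-737 over vehicle (-0.12 to 0.51). The cause was not tested. Leaving out libraries in lung and skin and for the list counts, and the left-out and blocked fits of kidney against lung, were chosen after seeing the data.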
